A study of Mus musculus with 12 samples.

Results

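The ETS family is a group of transcription factors that share a DNA-binding domain and recognise a GGAA core. The 10 genes described here are Etv4, Etv5, Etv6, Ets1, Ets2, Elk1, Elk3, Elk4, Erf and Gabpa, of 18193 genes measured on the arrays. They were chosen by name, and each was read from probe sets (groups of short probes on the array) annotated to that gene alone. The members had 29 such probe sets, of which the one with the highest average over all 12 arrays stood for its gene, and the other 19 were read beside it.

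C790 is a mouse melanoma cell line with mutant Nras. All cells carried a doxycycline-inducible lentiviral vector with Oct4, Sox2, Klf4 and a blasticidin resistance gene, under a tetracycline-responsive element, and a second vector for the rtTA activator with mCherry. Partially reprogrammed cells (+dox) had been kept with doxycycline until day 20, and control cells (−dox) carried the same vectors without it. Each was given the MEK inhibitor trametinib or the solvent DMSO for 72 h, which gave 4 groups of 3 Affymetrix mouse arrays, listed here as +dox trametinib, +dox DMSO, −dox trametinib and −dox DMSO. The trametinib dose for the arrays is not given in the sources used here, and 1 cell line was studied. Nothing in the labels says whether the 3 arrays of a group came from separate cultures, and p-values therefore reflect no more than the spread between these samples. RNA came from bulk cultures, in which fewer cells of a type and less RNA per cell cannot be told apart.

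Many ETS factors stand at the end of the RAS–RAF–MEK–ERK pathway, which mutant Nras keeps active and trametinib blocks at MEK. The PEA3 subfamily members Etv4 and Etv5 are switched on at the level of transcription when ERK inactivates the repressor CIC, whereas Elk1, Ets1, Ets2 and the repressor Erf are phosphorylated by ERK directly. The ternary complex factors Elk1, Elk3 and Elk4 bind with SRF at immediate early genes such as Egr1 and Fos. Arrays measure mRNA and not phosphorylation.

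Etv5, a transcriptional activator, moved most with trametinib, and its 2 promoter windows are shown for that reason, each with 250 bases before and 50 after a start site (RefSeq, GRCm38.p6, minus strand). Promoter 1 lies at chr16:22439521-22439820 and promoter 2 at chr16:22438319-22438618. Capitals mark TGAATGG or its reverse complement CCATTCA, 7 letters of which the CIC octamer TGAATGGA is an extension.
Etv5 promoter 1: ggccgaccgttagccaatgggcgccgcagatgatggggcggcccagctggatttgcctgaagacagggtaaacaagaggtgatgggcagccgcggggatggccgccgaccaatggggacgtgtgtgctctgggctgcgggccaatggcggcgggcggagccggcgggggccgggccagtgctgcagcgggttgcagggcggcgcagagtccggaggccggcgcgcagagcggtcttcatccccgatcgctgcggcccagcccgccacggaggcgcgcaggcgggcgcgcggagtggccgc
Etv5 promoter 2: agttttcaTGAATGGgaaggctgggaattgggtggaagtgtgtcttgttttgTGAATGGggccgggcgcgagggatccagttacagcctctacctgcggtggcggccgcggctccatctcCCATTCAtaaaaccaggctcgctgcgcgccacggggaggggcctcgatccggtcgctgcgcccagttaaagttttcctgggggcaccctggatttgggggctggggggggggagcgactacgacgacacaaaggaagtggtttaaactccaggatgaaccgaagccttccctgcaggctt

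Promoter 2 of Etv5 held TGAATGG 3 times, at 242, 198 and 130 bases before the start, the last one on the opposite strand, and promoter 1 held none. Among 32851 promoter windows of the same length, 3.59% held TGAATGG on either strand and 1 window, that of Etv5, held at least 3 copies. The letters were chosen after the sequence had been read, so the match is a description. The forms of the CIC octamer that were searched were TGAATGAA, TGAATGGA, TCAATGAA and TCAATGGA (3.84% of all windows). These and the CArG box of SRF (1.63%) were in none of the 11 windows that 8 of the 10 members had. Each TGAATGG in promoter 2 of Etv5 is followed by G on its own strand, a form not among those octamers.

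Of the 11 windows, promoter 1 of Elk4 and the window of Gabpa are the ones that held the ETS letters CCGGAAG (8.86% of all windows, both strands). Neither gene passed the test with trametinib. Promoters 2 and 3 of Elk4 did not hold these letters, nor did the window of Erf, which also did not pass. The Elk4 window at chr1:132007370-132007669 (plus strand) held them 68 bases before the start, within the longer CCGGAAGT (3.89% of all windows), and the Gabpa window at chr16:84834874-84835173 (plus strand) held the reverse complement 93 bases before it. Capitals mark these letters.
Elk4 promoter 1: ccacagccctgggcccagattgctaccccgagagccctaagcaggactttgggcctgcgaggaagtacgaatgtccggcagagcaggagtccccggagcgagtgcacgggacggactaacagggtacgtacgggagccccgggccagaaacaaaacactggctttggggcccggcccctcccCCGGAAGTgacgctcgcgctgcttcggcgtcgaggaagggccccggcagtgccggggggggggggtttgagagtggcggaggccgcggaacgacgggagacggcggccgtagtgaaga
Gabpa promoter 1: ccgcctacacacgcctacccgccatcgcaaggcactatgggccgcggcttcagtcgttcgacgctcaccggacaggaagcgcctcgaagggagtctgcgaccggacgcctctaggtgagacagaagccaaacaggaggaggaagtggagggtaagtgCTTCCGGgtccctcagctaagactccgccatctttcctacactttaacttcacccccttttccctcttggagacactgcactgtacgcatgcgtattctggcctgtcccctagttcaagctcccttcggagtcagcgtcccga

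Values are log2 expression after RMA normalisation, so a difference of 1 is a doubling, and levels of different probe sets are not compared. A background level of 4.87 was taken from 84 probe sets of odorant, vomeronasal and taste receptor genes (the 95th percentile of their means), and a change that crosses it is a lower bound, measured as the higher mean minus that level and written "at least". Changes were tested with limma and adjusted over all 18193 genes, and "rose" and "fell" mean an adjusted p under 0.05. All 10 members were above background in at least 1 group.

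With trametinib, 5 of 10 members changed in +dox cells (2 rose and 3 fell) and 6 of 10 in −dox cells (2 rose and 4 fell). Of all genes, 26.2% passed the test in +dox cells (13.8% rose and 12.5% fell) and 22.4% in −dox cells (11.6% rose and 10.8% fell). Ets2 and Elk1 rose and Etv5, Etv4 and Elk3 fell in both states, and Etv6 fell in −dox cells. Changes over 2-fold were seen for Etv5, Etv4 and Ets2 in each state, against 9.64% of all genes in +dox cells and 7.59% in −dox cells. The arrays of the 2 treatments did not overlap for 6 members in each state (40.7% of all genes in +dox and 35.6% in −dox cells).

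**Figure D1:**
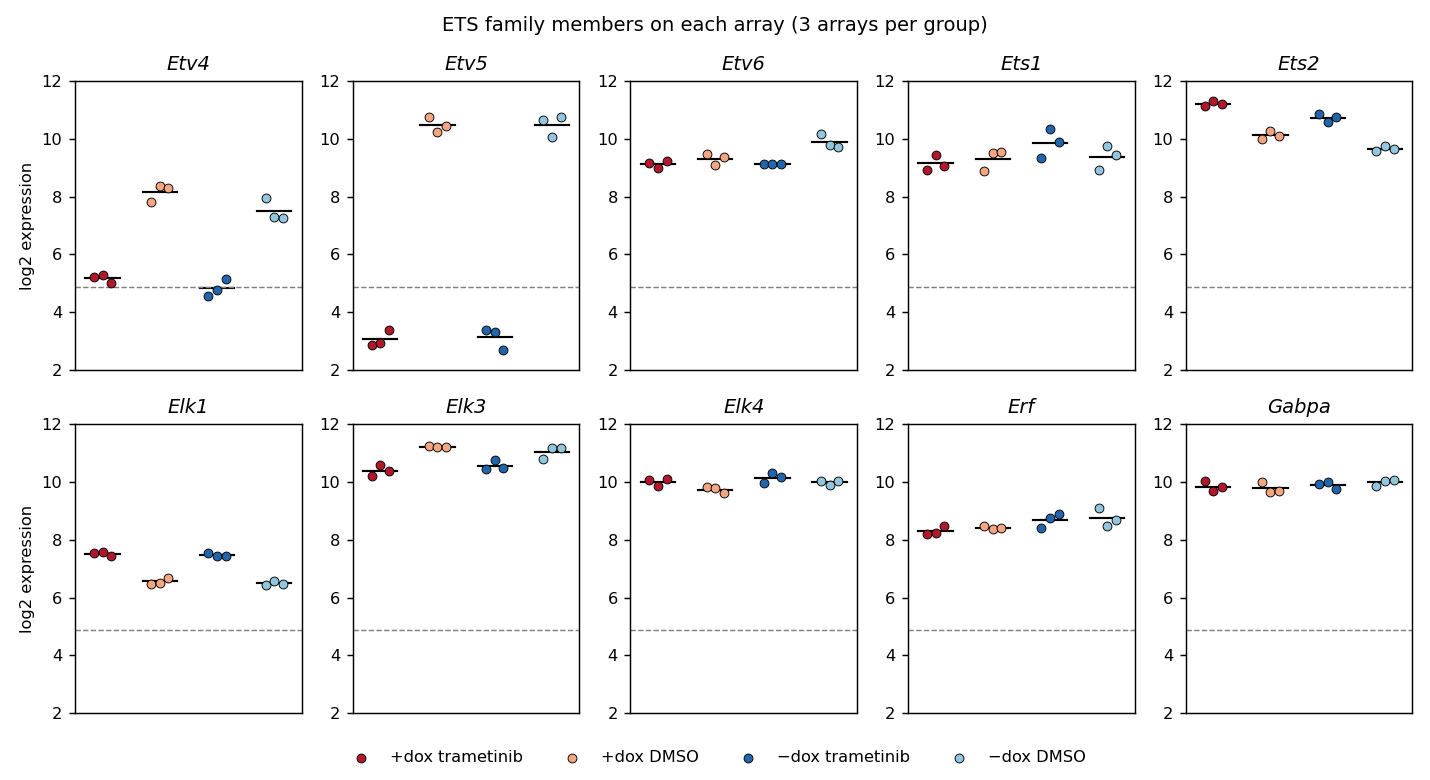
Log2 expression of the 10 ETS members on each array, with a panel per gene, the 4 groups side by side, points for the 3 arrays and a bar at the group mean. The dashed line is the background level of 4.87, under which all 6 trametinib arrays of Etv5 lie (2.70 to 3.39).

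The largest change among the 10 members belonged to Etv5. It read 2.87, 2.92 and 3.38 on the +dox trametinib arrays, against 10.75, 10.25 and 10.44 on the +dox DMSO arrays. In −dox cells it read 3.39, 3.31 and 2.70 with trametinib, against 10.66, 10.06 and 10.74 with DMSO. Etv5 was thus below background on every trametinib array and far above it on every DMSO array, with no overlap in either state. It fell by at least 5.61 in +dox cells (adjusted p = 1.99e-08) and by at least 5.62 in −dox cells (adjusted p = 1.66e-08), a fall of at least 48.8-fold and 49.0-fold. Dox made no difference that could be seen under DMSO, where Etv5 averaged 10.48 ± 0.25 in +dox and 10.49 ± 0.37 in −dox cells (SD, n = 3 each), with a 95% interval of −0.53 to 0.51 for the difference. The other 2 probe sets of Etv5 gave measured changes of −4.63 and −3.71 (+dox) and −4.26 and −3.97 (−dox), and both were also below background with trametinib.

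Etv4, the other PEA3 activator measured here, fell less far. Its values were 5.20, 5.28 and 5.02 on the +dox trametinib arrays and 7.81, 8.37 and 8.29 on the +dox DMSO arrays. In −dox cells they were 4.57, 4.78 and 5.16 with trametinib and 7.94, 7.30 and 7.27 with DMSO. Trametinib and DMSO arrays did not overlap, and with trametinib Etv4 sat close to the background level on all 6 arrays. Etv4 fell by 2.99 in +dox cells (standard error 0.21, 7.94-fold, adjusted p = 9.4e-06) and by at least 2.63 in −dox cells (adjusted p = 2.82e-05), whose trametinib mean of 4.84 was just under the level. Under DMSO, Etv4 averaged 8.16 ± 0.30 in +dox cells and 7.50 ± 0.38 in −dox cells (SD, n = 3 each), a difference of 0.65 that did not pass (adjusted p = 0.105), but did without −dox DMSO replicate 1 (0.87, adjusted p = 0.0274). A second, dim probe set of Etv4 was above background in +dox DMSO cells alone, at a mean of 5.01. With trametinib it read lower by 0.92 in +dox cells (limma adjusted p = 0.0397 over probe sets), most of it under background. In −dox cells, with both groups under background, it changed by −0.50 (adjusted p = 0.271).

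Among the ternary complex factors, Elk1 rose while Elk3 fell. Elk1, an activator when phosphorylated, read 7.55, 7.58 and 7.43 in +dox trametinib cells, against 6.47, 6.52 and 6.68 in +dox DMSO cells. In −dox cells it read 7.54, 7.44 and 7.45 with trametinib, against 6.44, 6.57 and 6.47 with DMSO. Every trametinib array was higher than every DMSO array, and within a treatment the +dox and −dox arrays overlapped. Elk1 rose by 0.96 in +dox cells (standard error 0.09, 1.95-fold, adjusted p = 3.67e-05) and by 0.98 in −dox cells (1.98-fold, adjusted p = 5.93e-05). A second probe set gave 0.87 and 0.90, and the remaining one was under background in all groups.

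Elk3, which can act as a repressor in the same complex, read 10.22, 10.58 and 10.39 on the +dox trametinib arrays and 11.25, 11.21 and 11.22 on the +dox DMSO arrays. The −dox arrays read 10.45, 10.75 and 10.48 with trametinib and 10.80, 11.16 and 11.17 with DMSO. The treatments did not overlap, but in −dox cells the highest trametinib array (10.75) lay close to the lowest DMSO array (10.80). Elk3 fell by 0.83 in +dox cells (standard error 0.13, 1.78-fold, adjusted p = 0.000902) and by 0.48 in −dox cells (1.40-fold, adjusted p = 0.0231). The −dox call was lost without −dox trametinib replicate 1 or 3 or −dox DMSO replicate 2 or 3 (adjusted p between 0.0758 and 0.0846). A pair of further probe sets above background gave −0.92 and −1.0 (+dox) and −0.73 and −0.73 (−dox).

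For Elk4, the remaining ternary complex factor, the arrays ranged over 9.86 to 10.11 with trametinib and 9.62 to 9.81 with DMSO in +dox cells, and over 9.97 to 10.30 and 9.90 to 10.03 in −dox cells. The +dox ranges were apart and the −dox ranges overlapped. The changes of 0.27 in +dox cells (adjusted p = 0.101, 95% interval 0.03 to 0.52) and 0.17 in −dox cells (adjusted p = 0.336, 95% interval −0.08 to 0.41) did not pass the test. The other probe sets of Elk4 above background gave 0.22 and 0.06 (+dox) and 0.09 and 0.21 (−dox), none past the test.

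Ets2, an activator that ERK phosphorylates, was the member called with trametinib in both states and with dox under both treatments. It read 11.15, 11.30 and 11.20 in +dox trametinib cells and 9.98, 10.28 and 10.11 in +dox DMSO cells. The −dox values were 10.85, 10.57 and 10.74 with trametinib and 9.57, 9.75 and 9.64 with DMSO. The 4 groups did not overlap, in the order +dox trametinib, −dox trametinib, +dox DMSO and −dox DMSO. With trametinib Ets2 rose by 1.09 in +dox cells (standard error 0.11, 2.13-fold, adjusted p = 5.14e-05) and by 1.07 in −dox cells (2.09-fold, adjusted p = 0.000106). Against −dox cells, +dox cells were higher by 0.50 under trametinib (adjusted p = 0.032) and by 0.47 under DMSO (adjusted p = 0.0301). These dox calls were less firm, since that under trametinib was lost without any 1 of 7 arrays (every +dox trametinib replicate, −dox trametinib replicates 2 and 3, −dox DMSO replicate 3 and +dox DMSO replicate 3, adjusted p between 0.0533 and 0.145), and that under DMSO without −dox DMSO replicate 1 or 3 or +dox DMSO replicate 2 or 3 (adjusted p between 0.0642 and 0.12). A further probe set of Ets2 above background gave rises of 1.17 and 1.01 with trametinib in +dox and −dox cells. With dox that probe set did not pass, at 0.48 under trametinib (limma adjusted p = 0.173 over probe sets) and 0.32 under DMSO (adjusted p = 0.308).

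Ets1, a relative of Ets2, spread more widely between arrays. It read 8.93, 9.44 and 9.07 with trametinib and 8.89, 9.51 and 9.55 with DMSO in +dox cells, and 9.33, 10.34 and 9.88 with trametinib and 8.91, 9.74 and 9.45 with DMSO in −dox cells. All neighbouring groups in the order of means overlapped. The changes with trametinib were −0.17 in +dox cells (adjusted p = 0.745) and 0.48 in −dox cells (adjusted p = 0.271). The latter passed with the replicate number as a block (adjusted p = 0.021). Under trametinib, +dox cells averaged 9.15 ± 0.26 and −dox cells 9.85 ± 0.51 (SD, n = 3 each), a difference of −0.70 (adjusted p = 0.272), which passed with the replicate number as a block (adjusted p = 0.0142). The other probe sets of Ets1 above background gave −0.10 and −0.32 (+dox) and 0.48 and 0.32 (−dox) with trametinib, none past the test.

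Etv6, a repressor, read 9.17, 8.99 and 9.22 with trametinib and 9.49, 9.10 and 9.36 with DMSO in +dox cells. The −dox arrays read 9.14, 9.12 and 9.12 with trametinib and 10.17, 9.80 and 9.71 with DMSO. The −dox DMSO arrays were thus higher than those of the other 3 groups, which overlapped each other. Etv6 fell by 0.77 in −dox cells (standard error 0.14, 1.70-fold, adjusted p = 0.00223), and changed by −0.19 in +dox cells (adjusted p = 0.381). The difference between these responses was 0.58 (standard error 0.19), with a limma p of 0.0125 before and 0.253 after adjustment, so it did not pass. Under DMSO, +dox cells were lower than −dox cells by 0.58 (adjusted p = 0.0321), a call lost without −dox DMSO replicate 1 or 2, +dox DMSO replicate 2 or 3 or −dox trametinib replicate 3 (adjusted p between 0.0504 and 0.129). The second probe set of Etv6 gave −0.23 (+dox) and −0.45 (−dox) with trametinib, neither past the test. For dox under DMSO it gave −0.31, which did not pass either (limma adjusted p = 0.582 over probe sets).

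Erf and Gabpa passed the test in no comparison. Erf, a repressor that leaves the nucleus when ERK is active, ranged over 8.19 to 8.48 with trametinib and 8.36 to 8.46 with DMSO in +dox cells, and over 8.42 to 8.90 and 8.46 to 9.11 in −dox cells. Gabpa, the DNA-binding subunit of GABP, ranged over 9.68 to 10.04 and 9.67 to 9.99 in +dox cells and over 9.76 to 10 and 9.86 to 10.08 in −dox cells, with trametinib first in each state. The treatments overlapped for both genes in both states. The 95% intervals of the change with trametinib were −0.48 to 0.27 in +dox and −0.44 to 0.31 in −dox cells for Erf, and −0.22 to 0.35 and −0.39 to 0.18 for Gabpa. The second probe set of Gabpa, above background in all 4 groups, gave −0.09 (+dox) and 0.39 (−dox), neither past the test. Both were opposite in sign to the 0.06 and −0.10 of the probe set that stood for the gene. The second probe set of Erf was under background in all groups.

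**Figure D2:**
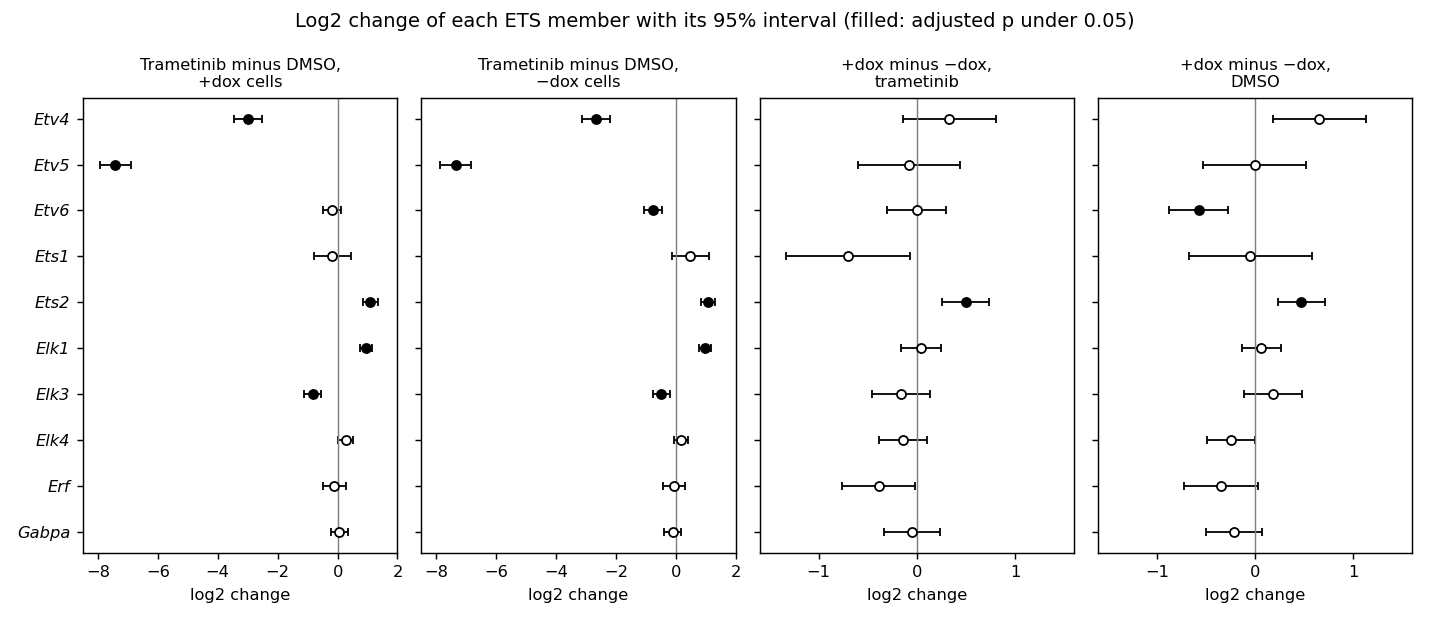
Log2 change of each ETS member with its 95% interval, in 4 panels, of which 2 show trametinib minus DMSO (+dox, −dox) and 2 show +dox minus −dox (trametinib, DMSO). Filled points have an adjusted p under 0.05, and the scales of the panels differ, since the measured trametinib changes reach −7.42 and the dox changes stay within −0.70 and 0.65.

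The dox comparisons called fewer members than the trametinib comparisons, and also fewer of all genes. Against −dox cells, 1 of 10 members (Ets2, higher) changed in +dox cells under trametinib, where 3.37% of all genes passed (1.95% higher and 1.42% lower). The blocked fit called 2 of 10, since Ets1 then passed as lower, and 897 of all genes, against 614 without the block. Under DMSO it was 2 of 10 (Ets2 higher and Etv6 lower), where 6.15% of all genes passed (2.87% higher and 3.28% lower). Under neither treatment did a member pass the test at over 2-fold with dox (1.97% of all genes did under trametinib and 2.61% under DMSO). The arrays of +dox and −dox cells did not overlap for 1 member under trametinib (20.1% of all genes) and for 4 members under DMSO (22.4%), which were Ets2, Etv6, Elk3 and Elk4. When the response to trametinib was compared between the cell states, no member passed (0.33% of all genes did), and Etv6 alone had an unadjusted p under 0.05. With the arrays weighted by their quality, 5 members passed for dox under DMSO, and with the arrays of the compared groups alone, 0.

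**Figure D3:**
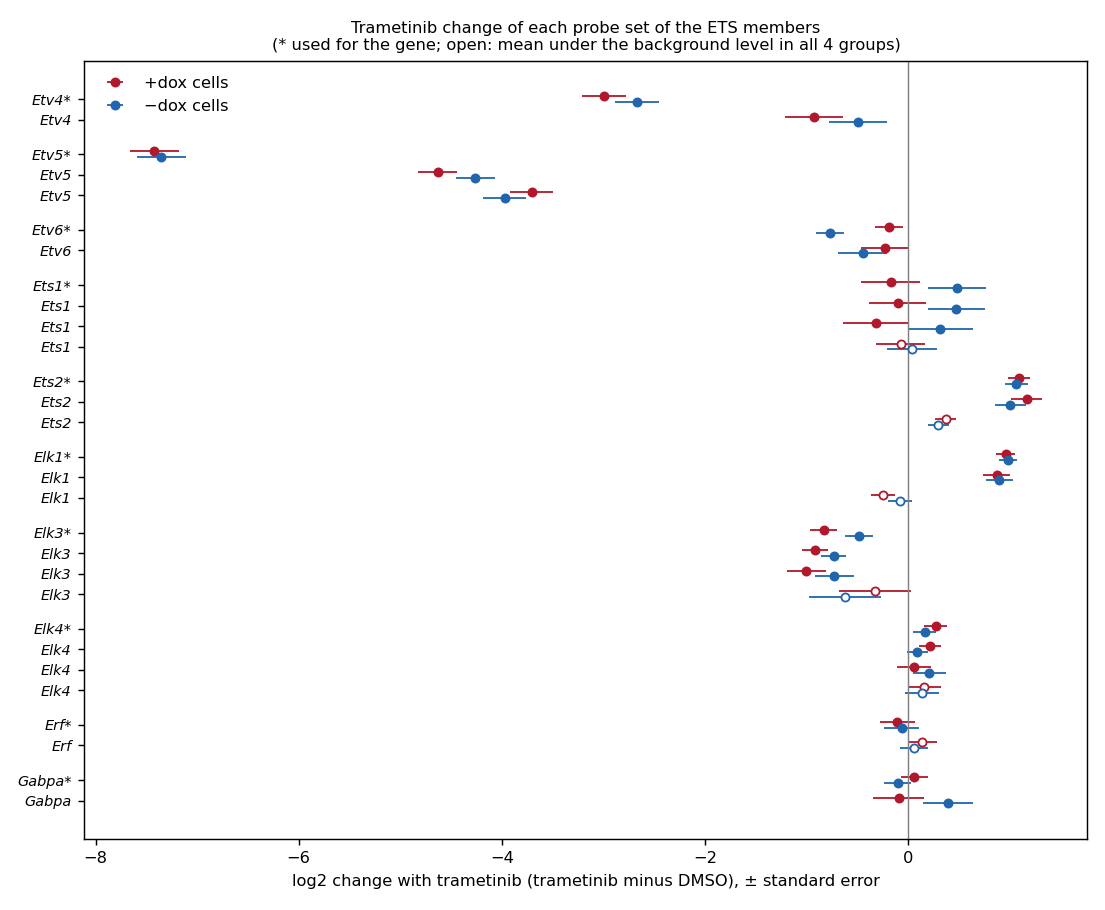
Log2 change with trametinib for each of the 29 probe sets of the ETS members (points) with its standard error (lines), +dox cells above −dox cells. The starred probe set stands for the gene, open points mark probe sets under background in all 4 groups, and the probe sets of Etv5, Elk1, Ets2 and Elk3 above background run the same way as the starred one.

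Over the 12 arrays, Etv5 had a Pearson r of 0.96 with Etv4, 0.90 with Elk3 and 0.71 with Etv6, and of −0.91 with Ets2 and −0.99 with Elk1. Among the 6 members called with trametinib, Etv6 and Elk3 had the r nearest 0, at 0.44. The 3 members with the highest SD over the arrays were Etv5, Etv4 and Ets2. Among 12453 genes above background, the highest r with Etv5 belonged to Egr1 (0.995), Dusp6 (0.992) and Rpl14 (0.991). Those with Etv4 were Ccdc77 (0.990), Ncl (0.980) and Dkc1 (0.980), and those with Ets2 were AU040320 (0.986), Wdr47 (0.978) and Gm15866 (0.975). The arrays fall into a trametinib and a DMSO set, and values over all 12 include that split. Within the DMSO set of 6, the r of Etv5 with Egr1 was 0.04, and within the trametinib set Etv5 was under background, so none is given. For Ets2 with Wdr47 it was 0.86 within the trametinib set and 0.93 within the DMSO set. These values describe 12 arrays that share treatments and carry no test.

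The genes that work with or under ETS factors were read from 5 further lists, chosen with earlier results of these data known. All 7 feedback genes under CIC and ETV control (Dusp4, Dusp6, Spry1, Spry2, Spry4, Spred1 and Spred2), which dampen ERK signalling, fell in both states. Their median change was −2.93 in +dox and −3.55 in −dox cells, against 0.02 and 0.06 over all genes. Dusp6, an ERK phosphatase, fell by 6.90 in +dox cells and by at least 7.19 in −dox cells, and Spred2, an inhibitor of RAF activation, changed by −1.70 (adjusted p = 4.58e-05) and −2.88 (adjusted p = 4.3e-06). Under trametinib, 5 of the 7 read higher in +dox than in −dox cells (Dusp6, Spry2, Spry4, Spred1 and Spred2), against 1.95% of all genes. Spry4 was under background in both groups. Dusp6 averaged 4.96 in +dox and 3.95 in −dox cells, the latter under background, so its difference was at least 0.09. The count of genes that read higher was 3 without +dox trametinib replicate 2 or −dox trametinib replicate 3. Etv4 and Etv5 did not show a dox difference there, at 5.17 and 4.84 (adjusted p = 0.576) for Etv4, of which the −dox mean is under background, and with both groups under background for Etv5. The differences in trametinib response themselves did not pass for any of the 7, the smallest adjusted p being 0.0626 for Spry2 (1.40) and 0.0741 for Spred2 (1.18). Leaving out +dox DMSO replicate 1 gave 3 calls, leaving out −dox trametinib replicate 1 or 2 or +dox trametinib replicate 1 gave 1, the replicate block gave 1 and array weights gave 4. Spry1, Spry2 and Spry4 lie outside the rule for named genes and were named after their values were seen.

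Of 9 immediate early targets of the ternary complex factors, 4 fell in +dox cells (Egr1, Egr2, Ier2 and Nr4a1) and 5 in −dox cells (these and Fos), with medians of −0.96 and −1.39. The shares of all genes that fell were 12.5% in +dox and 10.8% in −dox cells. Egr1, a zinc finger activator, averaged 5.55 ± 0.10 with trametinib and 12.31 ± 0.32 with DMSO in +dox cells, and 5.27 ± 0.16 and 12.81 ± 0.22 in −dox cells (SD, n = 3 each). In −dox cells 3 were called when −dox DMSO replicate 2 or 3 or −dox trametinib replicate 3 was left out. Under DMSO, Egr2, Junb and Ier2 were lower in +dox than in −dox cells, with differences of −2.27, −1.38 and −1.05. Fos and Nr4a1 lie outside the rule for named genes and were named after their values were seen.

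No gene of the other 14 ETS family genes measured passed in any comparison, and 7 of the 14 were above background. At an unadjusted limma p under 0.05 there was 1 gene in +dox cells (Elf2, 0.25) and 2 in −dox cells (Elf1, 0.74, and Ehf, 2.58) for trametinib, 1 for dox under trametinib (Elf2, 0.33), 0 for dox under DMSO, and 1 for the difference between responses (Elf2, 0.36). With array weights, 2 passed in +dox cells and 4 in −dox cells, without −dox DMSO replicate 1 these counts were 2 and 1, and without −dox DMSO replicate 2 they were 0 and 1. Ehf, an epithelial ETS factor, varied most between replicates, with 8.54, 3.30 and 4.86 on the −dox DMSO arrays. Elf2 was named after its values were seen.

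Of 13 partners and regulators, 5 changed with trametinib in +dox cells (Atxn1, Atxn1l, Gabpb2 and Ep300 rose and Gabpb1 fell) and 2 in −dox cells (Atxn1 and Atxn1l rose). The shares of all genes that passed were 26.2% and 22.4%. Atxn1 and Atxn1l are partners of CIC, and Atxn1l rose by 0.78 in +dox (adjusted p = 0.000479) and by 0.69 in −dox cells (adjusted p = 0.00137). The −dox count was 1 without −dox trametinib replicate 2 or 3. Gabpb1, a subunit that pairs with Gabpa, fell by 1.21 in +dox cells (adjusted p = 0.00529) and changed by −0.02 in −dox cells, and the difference between these responses did not pass (adjusted p = 0.217). Cic itself changed by 0.44 (+dox, adjusted p = 0.152) and 0.26 (−dox, adjusted p = 0.409), and Srf by 0.03 (adjusted p = 0.907) and 0.24 (adjusted p = 0.241). Gabpb2, Ep300, Cic and Srf were named after their values were seen.

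Among 6 GABP targets of mitochondrial function, 3 fell with trametinib in +dox cells (Tfam, Tfb1m and Tfb2m) and 2 in −dox cells (Tfam and Cox7c). The shares of all genes that fell were 12.5% and 10.8%. Tfam, which packages mitochondrial DNA, fell by 0.73 in +dox (adjusted p = 0.000722) and by 0.69 in −dox cells (adjusted p = 0.00133).

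**Figure D4:**
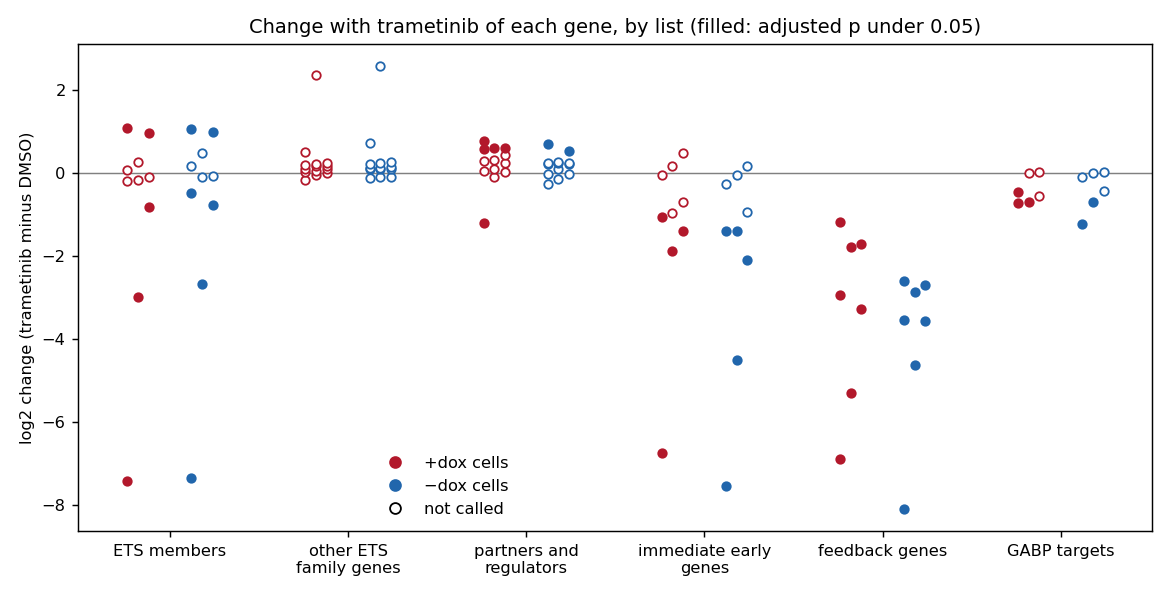
Log2 change with trametinib of each gene (points) in the 10 ETS members and in 5 lists of related genes, +dox cells left of −dox cells. Filled points have an adjusted p under 0.05, and the feedback genes, with all 7 filled and below 0 in both states, stand beside the other ETS genes, with none filled.

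The labels and the other cells that cultures could hold were checked on markers. Mitf, Sox10 and Pmel were above background in all 4 groups, and Tyr, Tyrp1, Dct and Mlana were under it in all. Pou5f1 (Oct4) averaged 5.45 in +dox and 4.63 in −dox DMSO cells (adjusted p = 0.0155), Sox2 5.87 and 7.40 (adjusted p = 0.0909) and Klf4 9.30 and 9.45 (adjusted p = 0.798). The −dox DMSO mean of Pou5f1 was under background, so that difference was not measured in full. Under trametinib Pou5f1 averaged 5.88 in +dox and 5.50 in −dox cells, and 0 of these 3 genes passed for dox (3.37% of all genes did). Whether these probe sets bind the vector's transcript is not given in the sources used here. Of 6 fibroblast markers, 4 were above background (Col1a1, Col3a1, Dcn and Pdgfra), and Lum and Thy1 were under it in all groups. The log2 of their summed level was 10.66 to 10.94 in +dox trametinib, 8.72 to 9.67 in +dox DMSO, 13.04 to 13.29 in −dox trametinib and 11.44 to 11.58 in −dox DMSO cells, so it moved with dox and with trametinib, and its part in the ETS values was not tested. Col1a1, Col3a1 and Dcn rose with trametinib in both states, whereas Pdgfra fell by 0.96 in −dox cells (adjusted p = 0.0297) and changed by −0.09 in +dox cells. The 5 leukocyte markers summed to 7.53 to 9.22 in +dox DMSO cells and 6.90 to 8.17 in the other groups. Ptprc and Adgre1 were under background in all 4 groups, and Cd68 and Cd3e were above it in all 4. Itgam averaged 5.60 in +dox DMSO cells, with 2 of 3 arrays above background, and 3.15 to 3.72 in the other groups. The part of these markers in the ETS values was not tested either. The 4 endothelial markers summed to 6.55 to 6.77 in all groups, with Pecam1 and Cdh5 under background. Kdr was above it in all groups, at 5.46 in +dox DMSO cells and 5.05 to 5.21 in the others, and Tek lay close to it (4.74 to 5.08). Replicate 1 of −dox DMSO stood apart most, at a median absolute deviation from its group mean of 0.17, against 0.08 to 0.11 on the other arrays.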

How the data were processed

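The authors hybridised total RNA to Affymetrix mouse arrays and applied RMA normalisation in the Chipster software. The deposited values are log2 intensities per probe set and were used as they are. Of 45101 probe sets, the 34945 with a single gene were kept, and 932 with several genes, 9211 not in the gene table and 13 control probe sets were left out. No filter on low values was applied, and the table holds no detection calls. Precision is limited by the number of arrays.

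The test was the moderated test of limma 3.58.1 (R 4.3.3), fitted with 1 mean for each group on all 12 arrays and no covariate, with Benjamini-Hochberg adjustment across the 18193 genes in each comparison. The fit was tested on simulated data. The comparisons share arrays, since the trametinib and the dox comparisons use the same 4 groups. Members and lists were chosen with earlier results of these data known. All 10 members were named, with up to 4 genes of each list (smallest p for trametinib in −dox cells or dox under DMSO) and the 3 genes most like each of the 3 most variable members, and exceptions are marked. Marker lists are named beyond this rule. Etv1 and Fev, without a single-gene probe set, are not analysed here.

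Deviations from the group means were correlated between arrays of the same number for trametinib in +dox cells (correlations of 0.25, 0.45 and 0.16), dox under DMSO (0.34, 0.17 and 0.23) and dox under trametinib (0.29, 0.21 and 0.27). For trametinib in −dox cells they were 0.30, 0.46 and 0.02. In the first 3 comparisons arrays of equal number were taken as possible pairs, going by these values and no label, but the printed tests were not paired. The values do not single out equal numbers throughout. For replicate 3, an array of another number correlated more highly for trametinib in +dox cells (0.19 against 0.16) and for dox under DMSO (0.31 against 0.23). This was also so for trametinib in −dox cells (0.04 against 0.02). Printed changes come from the fit without a block, and a blocked result stands beside a call that it changes. Alternatives were a replicate block, only the compared arrays, the mean of probe sets, probe sets tested singly, a background filter, further quantile normalisation, median centring, array weights, trended robust eBayes, other thresholds and leaving out each array. Promoter sequences are from RefSeq GRCm38.p6, and the plots used matplotlib 3.10.9 (Python 3.11.15).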

Additional observations from a re-analysis of the deposited data

Results flagged for a closer look

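Of the members and list genes, Egr2, a zinc finger transcription factor and immediate early gene, had a trametinib response that differed between +dox and −dox cells by the test of that difference. The log2 values were 4.28, 4.90 and 4.88 with trametinib and 5.79, 6.83 and 7.05 with DMSO in +dox cells, and 4.53, 4.22 and 4.23 with trametinib and 8.73, 8.46 and 9.30 with DMSO in −dox cells. The +dox change minus the −dox change was 2.63 (standard error 0.45, adjusted p = 0.0391 from limma). Both trametinib means were under the background level of 4.87, so neither fall was measured in full. The call was lost with the mean of probe sets, with probe sets tested singly, and without +dox trametinib replicate 1, 2 or 3, +dox DMSO replicate 2 or 3, −dox trametinib replicate 2 or 3 or −dox DMSO replicate 2 or 3.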

How the results depend on the processing

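The number of arrays and, for Etv5 and Etv4, the background level limit what the arrays can show. At the 90th and 99th percentiles the level was 4.61 and 5.42. The trametinib calls of Etv5, Etv4, Ets2, Elk1 and Elk3 in +dox cells, and of Etv5, Etv4, Ets2, Elk1 and Etv6 in −dox cells, held at an adjusted p under 0.05 under every alternative fit and without any 1 array. Of 1040 values of single members under alternatives, 28 lost a call, 8 gained one and 51 changed sign, of which 0 were called. Lost calls beside those named above were Elk3 in −dox cells with the compared arrays alone (adjusted p = 0.0741), Etv6 for dox under DMSO with the compared arrays alone (0.132) and with median centring (0.0867), and Ets2 for dox under DMSO with the compared arrays alone (0.101) and with the mean of probe sets (0.109). For dox under trametinib, Ets2 lost its call with the compared arrays alone (0.067), the mean of probe sets (0.065) and median centring (0.0733).

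With a fold change over 2 as well, 3 members were called for trametinib in +dox cells, 3 in −dox cells, and 0 for dox under trametinib or under DMSO. At an adjusted p under 0.01, both dox counts were 0. For dox under trametinib, the count was 2 with the replicate block, 0 with the compared arrays alone, 0 with the mean of probe sets, 0 with median centring and 2 with array weights, and for dox under DMSO it was 0, 1, 1 and 5 with the last 4 of these. Without any 1 array the count was 5 for trametinib in +dox cells, 5 to 6 in −dox cells, 0 to 1 for dox under trametinib and 0 to 2 for dox under DMSO. The replicate block also called Ets1 for trametinib in −dox cells (0.48, adjusted p = 0.021), which made 7. No label gives pairs in that or any other comparison. Trametinib in −dox cells was not counted among the comparisons with possible pairs, since its replicate 3 correlated at 0.02. Apart from Ets1 for trametinib in −dox cells and for dox under trametinib, the block changed no member's call. Array weights called Elk4 for trametinib in +dox cells (adjusted p = 0.0424), Etv4, Elk4 and Gabpa for dox under DMSO (0.000801, 0.0205 and 0.0267) and Erf for dox under trametinib (0.0459).

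Sign changes, none of them called, were as follows. With the mean of probe sets, the log2 change with trametinib was 0.017 for Erf and −0.015 for Gabpa in +dox cells and 0.145 for Gabpa in −dox cells. The dox change was 0.066 for Etv5 under trametinib, and under DMSO it was 0.13 for Etv5, 0.042 for Ets1, −0.12 for Elk3 and 0.052 for Gabpa. The difference between responses was 0.018 for Erf and −0.16 for Gabpa. With median centring, trametinib gave 0.07 for Erf and 0.03 for Gabpa in −dox cells, dox gave −0.047 for Elk1 under trametinib and 0.09 for Etv5 and 0.043 for Ets1 under DMSO, and the difference between responses was −0.16 for Ets2, −0.077 for Elk4 and −0.017 for Gabpa. With array weights, Erf changed by 0.12 with trametinib in −dox cells, Etv5 by 0.053 with dox under trametinib, and the difference between responses was 0.24 for Etv5.

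Leaving out 1 array at a time, the change with trametinib ranged over −0.035 to 0.17 for Gabpa in +dox cells and −0.21 to 0.12 for Erf in −dox cells. That with dox ranged over −0.29 to 0.052 for Etv5 and −0.15 to 0.032 for Gabpa under trametinib, and over −0.22 to 0.12 for Etv5 and −0.28 to 0.16 for Ets1 under DMSO. The difference between responses ranged over −0.29 to 0.14 for Etv5, −0.048 to 0.11 for Ets2, −0.063 to 0.042 for Elk1 and −0.22 to 0.10 for Erf.

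Over all genes, median centring moved every change by 0.13 for trametinib in −dox cells and by −0.18 for the difference between responses, so that 4193 genes rose and 1544 fell with trametinib in −dox cells, against 2113 and 1959 without centring. For dox under DMSO it gave 1148 higher and 464 lower, against 522 and 596, for dox under trametinib 294 and 425, against 355 and 259, and for the difference 49 and 168, against 47 and 13. Array weights raised the number of genes called to 7131 for trametinib in −dox cells, 4086 for dox under DMSO, 1427 for dox under trametinib and 1066 for the difference. With the compared arrays alone, 550 passed for dox under DMSO. The difference between responses had 60 calls, 141 with the replicate block, 36 with probe sets tested singly, and 13 to 200 without any 1 array.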
